A study of Mus musculus with 6 samples.

Results

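The 9 genes described here encode the receptors of transforming growth factor beta (TGF-beta), the Smad proteins that carry its signal, and the inhibitors of those Smads, and the data are the open-chromatin sites called at them in mouse regulatory T cells (Treg cells). The genes are Tgfbr1, Tgfbr2, Tgfbr3, Smad2, Smad3, Smad4, Smad7, Ski and Skil. A peak belonged to a gene when its midpoint lay in the gene body, or when it lay between genes with that gene as the nearest protein-coding gene within 100 kb. By this rule 75 of 38258 peaks of one genotype and 73 of 36182 peaks of the other were members, 148 of 74440 in all. Open chromatin was read out by ATAC-seq, a method in which a transposase cuts accessible DNA and tags it for sequencing.

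The cells were sorted as CD4+YFP+ cells from spleen and draining lymph nodes of C57BL/6 mice, and 100000 cells were lysed per sample. Each group had 3 samples. The first, labelled WT, was Bcl11b w/w with Foxp3-IRES-YFP-Cre, and the second, labelled KO, was Bcl11b f/f with the same Foxp3-IRES-YFP-Cre. Both groups thus carried YFP and Cre recombinase from the Foxp3 locus, so that recombination in the second is directed to cells that express Foxp3. The labels do not state the age or sex of the mice, whether animals were pooled or which part of Bcl11b is removed. Bcl11b is a zinc-finger factor needed for T cell identity. The 3 samples of a group share 1 peak list, which holds no read counts. Depth per sample is therefore unknown, the spread between replicates could not be measured, and no test across samples was possible for any difference below. In bulk samples a site open in fewer cells and a site less open in every cell cannot be told apart.

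In the canonical pathway TGF-beta binds the type II receptor, which recruits and phosphorylates the type I receptor. The type I receptor phosphorylates Smad2 and Smad3, which join Smad4 and regulate genes in the nucleus. Smad7 blocks the activated receptor, and Ski and SnoN (the product of Skil) hold Smad complexes in a repressive state. In T cells TGF-beta restrains activation and supports the induction of Foxp3, the lineage factor of Treg cells.

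The 250 bases before the annotated start are given for 3 members, those with a RefSeq promoter entry and a WT peak in these bases. They are RefSeq sequences of build GRCm38.p6 (the same coordinates as mm10), written 5′ to 3′ on the gene's strand, and the capitals mark the bases inside a peak of the WT list. The windows are chr9:63757995-63758244 (minus strand) for Smad3, chr4:47352972-47353221 (plus strand) for Tgfbr1 and chr9:116175364-116175613 (minus strand) for Tgfbr2.
Smad3: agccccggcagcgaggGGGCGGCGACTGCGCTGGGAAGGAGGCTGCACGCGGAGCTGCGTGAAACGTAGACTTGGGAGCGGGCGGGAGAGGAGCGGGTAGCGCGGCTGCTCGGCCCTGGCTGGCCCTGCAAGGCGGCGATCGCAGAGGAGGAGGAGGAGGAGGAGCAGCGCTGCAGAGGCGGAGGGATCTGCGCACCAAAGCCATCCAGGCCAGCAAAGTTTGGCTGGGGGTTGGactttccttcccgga
Tgfbr1: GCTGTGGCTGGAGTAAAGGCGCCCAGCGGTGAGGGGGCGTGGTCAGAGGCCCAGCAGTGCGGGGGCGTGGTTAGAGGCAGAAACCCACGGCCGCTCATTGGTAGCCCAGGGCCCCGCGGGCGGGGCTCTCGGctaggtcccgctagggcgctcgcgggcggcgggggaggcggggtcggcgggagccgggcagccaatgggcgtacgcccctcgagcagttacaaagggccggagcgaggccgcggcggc
Tgfbr2: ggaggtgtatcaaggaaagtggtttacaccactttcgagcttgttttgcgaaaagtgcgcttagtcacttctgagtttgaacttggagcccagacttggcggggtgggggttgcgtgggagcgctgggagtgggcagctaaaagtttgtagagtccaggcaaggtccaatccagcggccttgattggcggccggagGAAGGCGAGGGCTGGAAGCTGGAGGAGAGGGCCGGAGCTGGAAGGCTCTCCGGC

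At Smad3 the WT list had a peak at chr9:63758010-63758228 that lay wholly inside this window and covered 219 of its 250 bases. The KO list had no base in the window. Its nearest peak there, at chr9:63758286-63758478, began 41 bases further upstream than the window. The edges of the WT and the KO peak were 57 bp apart and their midpoints 263 bp. Under the rule used here they counted as 1 WT-only and 1 KO-only peak. At Tgfbr1 the peaks of both lists lay just before the start and overlapped each other, with 132 bases of the window in the WT peak and 193 in the KO peak. At Tgfbr2 the WT peak covered 54 bases next to the start. The KO peak that overlapped it lay inside the gene, with 50 bases between it and the window. The midpoints of the WT and the KO peak at these starts were thus 263 bp apart at Smad3, 91 bp at Tgfbr2 and 74 bp at Tgfbr1. The Smad3 peaks did not overlap, and whether they mark the same site cannot be told from the calls. Only the distances at Tgfbr2 and Tgfbr1 compare with those of shared peaks. The median distance between the midpoints of shared peaks was 31 bp over all assigned shared peaks and 34 bp over the 54 shared peaks of the members. Shared peaks at gene ends of other members had midpoints 7 bp (Smad2), 16 bp (Smad4), 18 bp (Ski), 34 bp (Smad7) and 53 bp (Tgfbr3) apart. Skil had pairs at 31 and 73 bp, and a further pair at the start of Tgfbr2 was 5 bp apart.

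Of the 9 members, 4 had an entry in the RefSeq promoter table, with 5 windows, since Tgfbr1 has a further annotated start inside its gene, where neither list had a peak. Ski was the fourth. Its window (chr4:155222536-155222785) held no peak, and the nearest peaks lay 435 bp (WT) and 430 bp (KO) upstream of it. The windows were searched on both strands for 7 short motifs. The GC box GGGCGG, bound by Sp and KLF factors, occurred 2 times in the window of Smad3, 2 times in the first window of Tgfbr1 and 5 times in that of Ski. It was present in 32.7% of 32851 promoter windows of the same length. The CCAAT box of NF-Y occurred 2 times each at Tgfbr1 and Tgfbr2 (33.8% of all windows). The Smad box CAGAC was present in the window of Tgfbr2 and in the inner window of Tgfbr1 (42.2% of all windows). No member window held the ETS letters CCGGAAGT (2.88% of all windows), the RUNX letters TGTGGT (14.0%), the AP-1 letters TGANTCA (6.75%) or the cAMP response element TGACGTCA (1.55%). These matches describe the letters of the windows and are not evidence of binding.

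Most sites of the pathway genes were called in both genotypes. A peak that a peak of the other list overlapped by at least 1 bp was called shared, and the others WT-only or KO-only. The 9 genes held 54 shared sites, along with 21 WT-only and 19 KO-only ones. The shared share was 72.0% of the WT peaks (exact Clopper-Pearson 95% interval 60.4 to 81.8%) and 74.0% of the KO peaks (62.4 to 83.5%). WT-only peaks were thus 21 of 75, where 28.4% of all assigned WT peaks were WT-only. KO-only peaks were 19 of 73, where 24.8% of all assigned KO peaks were KO-only. Of the genotype-specific peaks of the members, 47.5% were KO-only (31.5 to 63.9%), against 45.4% over all assigned peaks. These shares lay near the background, and the intervals cover counting error only. A peak that is absent from a list was not called there, which does not show closed chromatin.

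**Figure D1:**
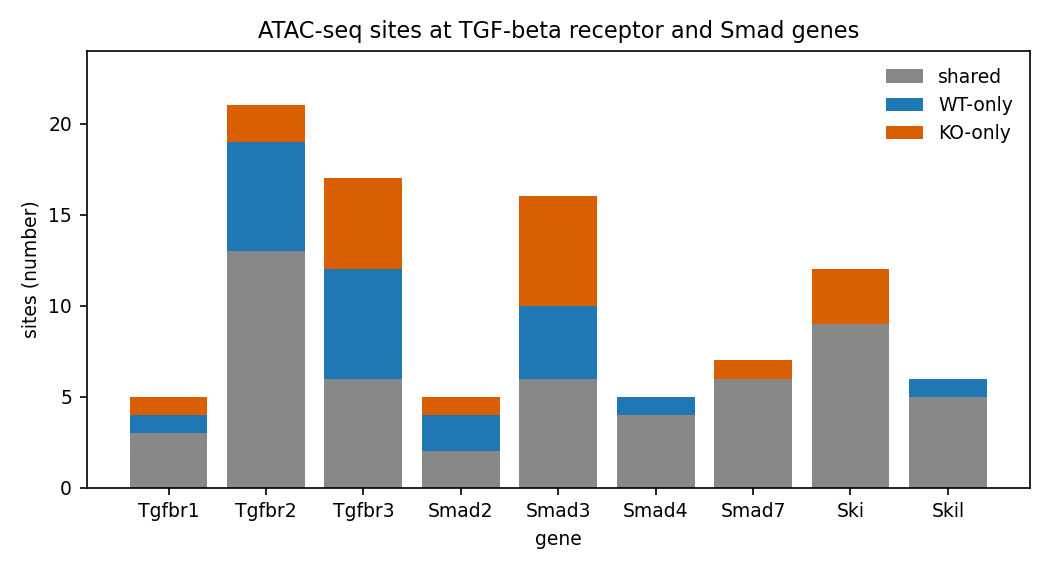
Number of sites (vertical axis) at each of the 9 genes (horizontal axis), stacked by class (shared, WT-only, KO-only); a shared pair counts as 1 site, and there are no error bars because each genotype has 1 list. Tgfbr2 has the tallest bar with 21 sites, Ski and Smad7 have no WT-only part, and Smad4 and Skil lack a KO-only part.

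The direction differed from gene to gene. WT-only peaks were more numerous at 5 of the 9 genes, where 47.3% of all genes with 5 or more sites had more WT-only than KO-only peaks. KO-only peaks were more numerous at 3 genes, Smad3, Smad7 and Ski, against a background of 30.7%, and Tgfbr1 had 1 of each. At Tgfbr3, Smad2, Smad4, Smad7 and Skil the direction rested on a difference of 1 peak. The median difference (KO-only minus WT-only) was -1 over the 9 genes and 0 over all 14516 genes with a peak. That wider set includes genes with fewer than 5 sites, and 7699 of its genes had equal numbers, which fixes its median at 0. By role, the receptor genes had 22 shared peaks, 13 WT-only ones and 8 KO-only ones. Smad2, Smad3 and Smad4 together had 12 shared, 7 WT-only and 7 KO-only ones. The inhibitor genes Smad7, Ski and Skil had 20 shared, 1 WT-only and 4 KO-only ones. Of the 21 WT peaks at the inhibitor genes, 20 were shared (95.2%, 76.2 to 99.9%). At the receptor genes 22 of 35 were (62.9%, 44.9 to 78.5%), against 71.6% over all assigned WT peaks. Of the KO peaks, 20 of 24 were shared at the inhibitor genes (83.3%, 62.6 to 95.3%) and 22 of 30 at the receptor genes (73.3%, 54.1 to 87.7%), against 75.2% over all, so the gap was smaller on that side. The groups of genes were set by role, and the difference between them has no replicate check. The shared share also varied with the place of a peak in its list by row order, described below. Over all assigned WT peaks it was 89.7% in the first 50% of the list and 52.6% in the second 50%. The median WT place of shared peaks was 20.4% at Smad7, 28.9% at Ski and 18.6% at Skil. It was 38.4% at Tgfbr1, 46.4% at Tgfbr2 and 63.8% at Tgfbr3. Whether place accounts for the difference by role was not tested.

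Tgfbr2, the type II receptor that binds the ligand (chr9:116087695-116175363, minus strand), had the most sites of the family. It held 13 shared sites, 6 that were WT-only and 2 that were KO-only, and 53 of the 14516 protein-coding genes with a peak had more sites than its 21. The sites ran from 84.0 kb inside the gene, near its far end, to 88.6 kb upstream of the start. Of the WT-only peaks, 3 were in the gene body, at chr9:116091245-116091463, chr9:116146063-116146281 and chr9:116152969-116153187. The other WT-only peaks lay upstream, 12.2, 55.3 and 74.6 kb from the gene. The peak at 12.2 kb (chr9:116187479-116187697) stood highest of the 6 in the WT list, at 43.0% from its top. Of the KO-only peaks, the one in the gene (chr9:116153495-116153687) was 307 bp from the edge of a WT-only peak, and the other (chr9:116208204-116208396) was 32.9 kb upstream. The surplus here was 4 WT-only peaks, and one of 3 or more was found at 24.5% of the 683 genes with at least 10 sites. Without Tgfbr2 the other 8 members had 15 WT-only and 17 KO-only peaks, so the direction of the total rested on this gene. It also turned under alternatives, to 18 WT-only against 19 KO-only with the WT list cut to the length of the KO list, to 13 against 14 with a reach of 10 kb and to 4 against 9 in the first 50% of each list.

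**Figure D2:**
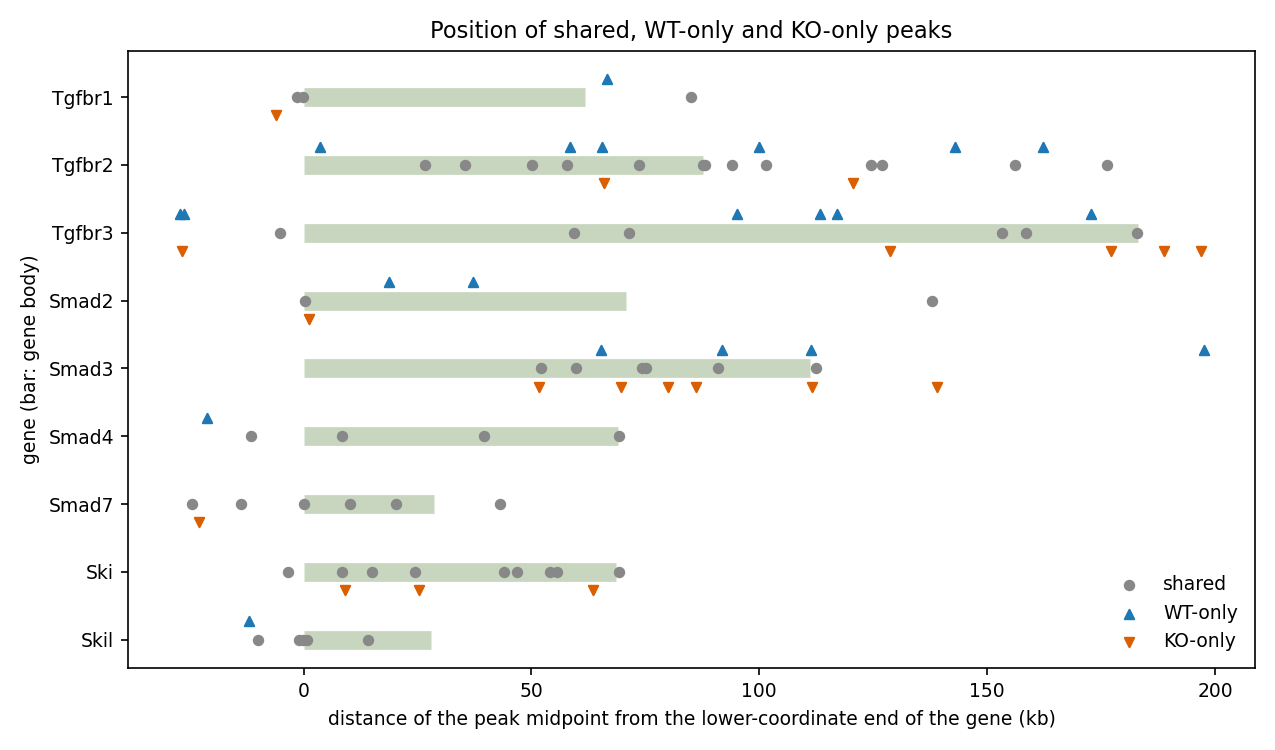
Position of every site of the 9 genes as the distance of its midpoint from the lower-coordinate end of the gene in kb (horizontal axis), one row per gene; bars are gene bodies, circles shared peaks at their WT position, upward triangles WT-only and downward triangles KO-only peaks. Sites of Tgfbr2 extend over 88.6 kb beyond the gene on one side, while the KO-only peaks of Ski all lie in the gene body.

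The order of the rows gave a further measure. The peaks in each list are numbered per chromosome and the rows closely follow these numbers (Spearman correlation within a chromosome of about 0.998, across peaks), so the place of a row, as a percentage of the list from its top, was taken as a rank of peak strength. This reading is inferred and not stated in the labels. Some peaks of the same gene also stood in adjoining rows in order of position. Examples are rows 24078 and 24079 of the WT list at Tgfbr3 and rows 17995 and 17996 of the KO list at Tgfbr2. Peaks of equal strength may thus be ordered by position, which was not tested. Small moves of place, which the counts of earlier and later peaks include, may therefore not reflect strength. Of all assigned shared peaks, 37.9% stood earlier in the KO list than in the WT list. Among the 13 shared peaks of Tgfbr2, 8 stood earlier in KO and 5 later. The 5 later ones all lay upstream of the start, and the 6 in the gene body all stood earlier in KO. In the gene body the largest move was at the pair chr9:116161129-116161347 (WT) and chr9:116160951-116161143 (KO), from 65.1% to 37.8%. This pair overlapped by its edges only, with midpoints 191 bp apart. Upstream, the most distant pair, 88.6 kb from the gene, went from 46.4% in WT to 69.9% in KO, and the pair at 68.4 kb from 42.2% to 58.9%. Both upstream pairs that stood earlier in KO lay 6.39 kb (81.3% to 65.1%) and 39.2 kb (66.5% to 49.7%) from the gene. Close to the start, the peak 0.484 kb upstream went from 24.2% to 40.2%, and the pair at the start, of which the WT peak alone covered it, from 29.3% to 21.0%.

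Tgfbr1, the type I receptor kinase (chr4:47353222-47414926, plus strand), had 5 sites and none in its gene body. Of the 14516 protein-coding genes with a peak, 2000 had more sites than Tgfbr1. Its 3 shared peaks lay just upstream of the start (midpoint 0.228 kb away in WT, 13.8%, and 0.154 kb in KO, 16.3%), 1.51 kb upstream (38.4% and 36.3%) and 23.3 kb beyond the gene (70.9% and 97.8%). The KO-only peak was 6.12 kb upstream and the WT-only peak 4.82 kb beyond the other end, both late in their lists at 64.1% and 74.2%. Just upstream of the start both lists thus held a peak of similar place, and the differences lay among low-placed sites.

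Tgfbr3, betaglycan, a coreceptor that presents the ligand (chr5:107106567-107289629), had as many WT-only as shared peaks. Its sites were 6 shared, 6 WT-only and 5 KO-only. Thus 6 of its 12 WT peaks were shared (interval of the share 21.1 to 78.9%), against 71.6% over all assigned WT peaks. All of the 11 genotype-specific peaks of Tgfbr3 stood in the second 50% of their lists. The WT-only ones stood between 62.9 and 83.4% and the KO-only ones between 69.6 and 88.6%. Most such peaks stood there in general. Over all assigned peaks, 18.5% of the WT-only and 26.8% of the KO-only ones lay in the first 50%. WT-only and KO-only peaks also lay side by side. Below the gene, the KO-only peak chr5:107079879-107080071 stood between WT-only peaks, 174 bp from the edge of one and 391 bp from the other. The peak at the upper gene end (chr5:107289400-107289618 in the WT list) was shared and went from 24.6% in WT to 45.6% in KO. Of the 6 shared peaks 4 stood later in KO, as did 16053 of all 25841 assigned shared peaks. The pair at chr5:107259649-107259867 was one of the 4 and went from 58.1% to 83.2%.

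Smad3, the receptor-regulated Smad that binds DNA directly (chr9:63646766-63757994, minus strand), had the most KO-only peaks of the family. Its sites were 6 KO-only, 4 WT-only and 6 shared. In addition to the promoter pair described with the sequences, 4 KO-only and 2 WT-only peaks lay in the gene body. Over all assigned peaks, 26.8% of the KO-only ones stood in the first 50% of the KO list. At Smad3 4 of the 6 did. They were chr9:63726695-63726887 at 26.4%, chr9:63732812-63733004 at 33.2%, the promoter peak at 35.8% and chr9:63716286-63716478 at 42.1%. Those in the gene body lay 31.2, 25.1 and 41.6 kb from the start, and the nearest WT peaks of each were over 4 kb away. The WT-only promoter peak stood at 24.3% and the WT-only peak chr9:63738489-63738707, 19.4 kb into the gene, at 35.0%. The latter was 741 bp from the edge of a shared peak. Of the 6 shared peaks 5 stood earlier in KO (37.9% of all assigned shared peaks did) and 1 later, by 0.478 percentage points. The intronic or exonic place of these peaks was not analysed here.

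Smad2, the other receptor-regulated Smad (chr18:76241090-76311748), had 2 shared sites, 2 WT-only ones and 1 KO-only one. The shared peak at its lower-coordinate end (chr18:76241337-76241555 in the WT list) was among the best-placed of the family, at 4.47% in WT and 7.08% in KO. The KO-only peak (chr18:76242185-76242377) lay 629 bp from the edge of that peak and stood at 26.3%. The WT-only peaks, inside the gene, stood at 64.0% and 97.3%. Smad4, the common partner of both (chr18:73634790-73703791), had 4 shared sites, 1 WT-only one and 0 KO-only ones. Its peak 0.269 kb above the gene (chr18:73703951-73704169 in the WT list) stood at 5.47% in WT and 8.38% in KO. The pair 11.6 kb below the gene (chr18:73623055-73623273 in WT) had the largest move of the family, from 30.8% in WT to 70.2% in KO, although the midpoints were 10 bp apart. Of all assigned shared peaks, 98.9% had a lower difference of KO minus WT place. The WT-only peak of Smad4 (chr18:73613593-73613811) was 66 bp from the edge of a KO-only peak that lay just across the halfway line and was assigned to the neighbouring gene Mex3c.

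Ski, a corepressor of Smad complexes (chr4:155154075-155222535, minus strand), had 9 shared sites, 3 KO-only ones and 0 WT-only ones. Genes with no WT-only peak made up 2.64% of the 683 with 10 or more sites, and a surplus of 3 or more KO-only peaks was found at 11.3% of them. The KO-only peaks of Ski were all inside the gene. All stood in the first 50% of the KO list, where 26.8% of all assigned KO-only peaks stood. They were chr4:155217467-155217659 at 20.6%, chr4:155179270-155179462 at 34.1% and chr4:155163088-155163280 at 48.3%. The first lay 4.97 kb from the start and was 5561 bp from the nearest WT peak. The others lay 635 and 429 bp from the edge of a shared peak. The best-placed shared peak of the whole family was also in Ski, at chr4:155200801-155201019 in the WT list, at 2.58% in WT and 1.42% in KO. The peak 0.795 kb upstream of the gene stood at 6.19% and 3.85%. Of the 9 shared peaks 7 stood earlier in KO, against 37.9% of all assigned shared peaks. The pair at chr4:155168935-155169153 moved the other way, from 28.9% to 59.3%.

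Smad7, the inhibitory Smad that is itself induced by TGF-beta (chr18:75367365-75395935), had 6 shared sites, 1 KO-only one and 0 WT-only ones. The peak at its lower-coordinate end (chr18:75367415-75367633) stood at 16.9% in WT and 21.3% in KO. The shared peaks within the gene, 10189 and 20193 bp from that end, stood at 9.54% and 23.9% in WT and at 7.88% and 16.4% in KO. A shared peak 13.7 kb below the gene went from 15.2% to 5.01%, and one 14.5 kb above it from 39.8% to 62.4%. The KO-only peak (chr18:75344353-75344545) stood at 44.8% and was 1376 bp from a shared peak. Skil, which encodes SnoN (chr3:31095058-31122923), had 5 shared peaks, 1 WT-only and 0 KO-only. Those nearest its lower-coordinate end kept close places, 6.80% and 6.58% for the peak 0.153 kb below it. The shared peak in the gene at chr3:31109103-31109321 went from 30.2% to 69.5%.

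Over the 54 shared peaks, 30 stood earlier and 24 later in the KO list, where 37.9% of all assigned shared peaks stood earlier. The median difference of KO minus WT place was -1.08 percentage points for the members and 2.55 for all. A move of at least 20 points, a size chosen after the values were seen, was found toward later in KO at 9 of 54 pairs, against 10.3% of all shared peaks. Toward earlier it was found at 1 pair, the one at Tgfbr2 with the edge overlap, against 5.58%. The 9 pairs were spread over 7 genes, with 2 each at Tgfbr3 and Skil, 1 each at Tgfbr1, Tgfbr2, Smad4, Smad7 and Ski, and 0 at Smad2 and Smad3.

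**Figure D3:**
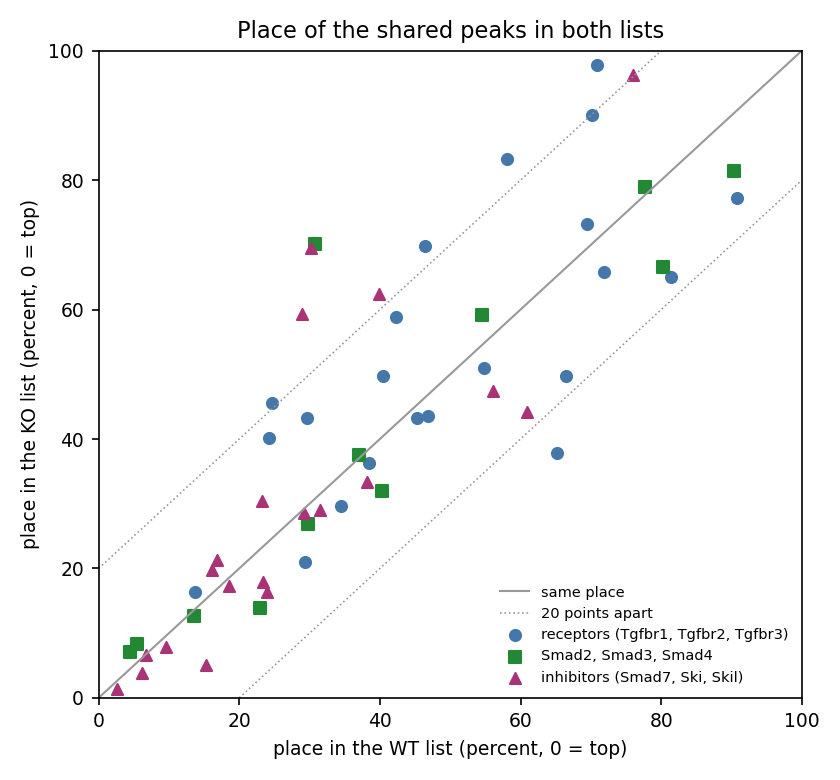
Place of the 54 shared peaks in the WT list (horizontal axis) and in the KO list (vertical axis), both as percent of the list from its top, with 0 at the top of the list; symbols mark receptors, Smad2 to Smad4, and inhibitors. The solid line marks equal places and the dotted lines 20 points apart, and 9 points lie above the upper dotted line and 1 below the lower one.

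Genotype-specific peaks of the members stood late in the lists, as such peaks did in general, but those of Smad3 and Ski less so. The WT-only peaks had a median place of 69.1% and the KO-only peaks 59.4%, against 76.1% and 71.3% over all assigned peaks. The median of the KO-only peaks was 39.0% at Smad3 and 34.1% at Ski, against 84.6% at Tgfbr3. In the first 50% of the WT list stood 4 of the 21 WT-only peaks, against 18.5% of all WT-only peaks. They were 2 at Tgfbr2 and 2 at Smad3. In the first 50% of the KO list stood 9 of the 19 KO-only peaks, against 26.8% of all KO-only peaks. Of these 9, 4 were at Smad3, 3 at Ski, 1 at Smad2 and 1 at Smad7, and 0 at the receptor genes, which held 8 KO-only peaks. The difference between the receptor genes and the other members was noticed in these values and was not tested.

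**Figure D4:**
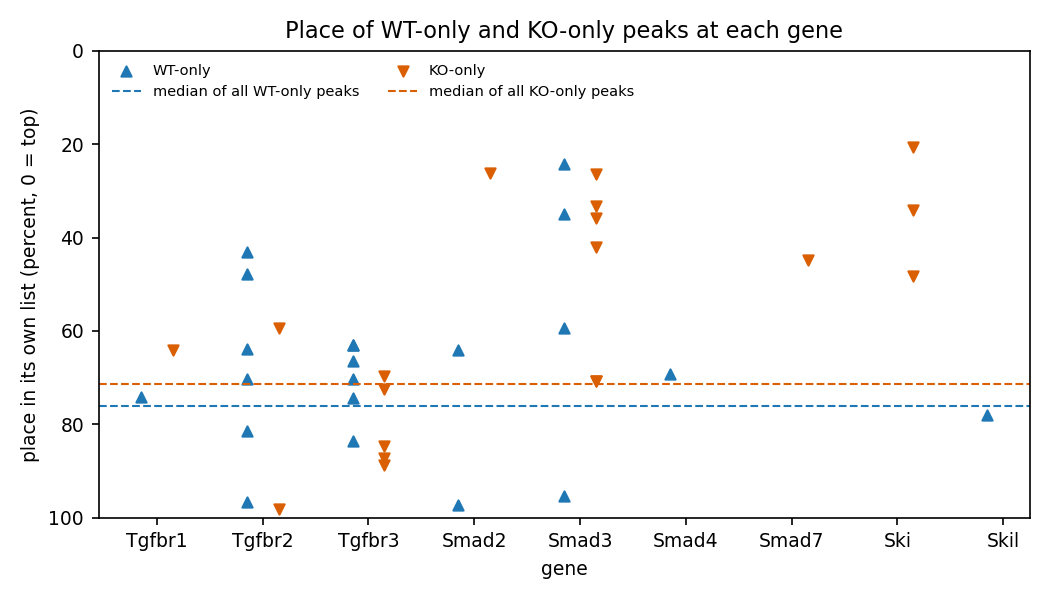
Place of each WT-only (upward triangles) and KO-only (downward triangles) peak in its own list, in percent with 0 at the top (vertical axis, top of the list up), by gene (horizontal axis); dashed lines are the medians over all assigned peaks of each class, 76.1% and 71.3%. The KO-only peaks of Ski lie between 20.6 and 48.3%, and those of Tgfbr3 between 69.6 and 88.6%.

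Near gene ends most member peaks were in both lists. Within 1 kb of the end of a protein-coding gene lay 11 WT and 11 KO peaks of the members, and 10 of each were shared. The exceptions were the adjoining promoter peaks of Smad3. Over all assigned peaks, 13.6% of the WT and 14.3% of the KO gene-end peaks were genotype-specific. Away from gene ends the members had 44 shared peaks, 20 WT-only ones and 18 KO-only ones. The shared share there was 68.8% of WT and 71.0% of KO peaks, near the 65.2% and 70.3% over all assigned peaks. Some member peaks also lay in RefSeq genes not annotated as protein-coding. These were Gm32435 at the start of Tgfbr1, Gm40582 and Gm4668 upstream of Tgfbr2, Gm31292 inside it, Gm51710 inside Smad3 and 4930578L24Rik next to Smad4. Which of the overlapping genes such a peak belongs to cannot be told apart. Part of the genotype-specific peaks had a close neighbour in the other list. A peak of the other list had its midpoint within 1 kb of 7 of the 21 WT-only peaks, against 24.6% of all WT-only peaks, and of 7 of the 19 KO-only peaks, against 33.6%. Just outside the reach of 100 kb lay a shared peak 119.0 kb upstream of Tgfbr2 (chr9:116294212-116294430), which was assigned to no gene. The most distant member inside it was the pair at 88.6 kb.

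Another 46 genes of the pathway, taken from lists of ligands, receptors, Smads, regulators and targets, held 98 shared sites, 45 WT-only ones and 45 KO-only ones. Their KO-only share was 50% (39.3 to 60.7%), and 43 of them had a peak. WT-only peaks were more numerous at 13 genes, KO-only peaks at 11 and neither at 22. Against the 45.4% over all assigned peaks, the KO-only share was 36.4% (17.2 to 59.3%) for ligands and activation, 38.5% (13.9 to 68.4%) for related receptors and 75% (19.4 to 99.4%) for other Smads. It was 53.7% (37.4 to 69.3%) for regulators and 70% (34.8 to 93.3%) for targets, and the interval of each group includes 45.4%. Among the 11 genes of ligands and their activation the numbers were 14 WT-only and 8 KO-only peaks. Itgb8, the integrin chain that activates latent TGF-beta, had 5 WT-only and 1 KO-only peaks, and Ltbp1, which anchors the latent ligand, had 3 and 0. Lrrc32, encoding GARP, which holds latent TGF-beta on Treg cells, had 1 of each and 3 shared ones, and Tgfb1 had 1 of each and 1 shared one. The 10 genes of related receptors had 8 WT-only and 5 KO-only peaks, with 2 and 0 at the activin receptor gene Acvr1c, and Eng and Acvr2b had no peak.

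The 4 genes of other Smads had 1 WT-only and 3 KO-only peaks. All of the KO-only ones were at Smad6, an inhibitory Smad like Smad7, which had 0 WT-only and 2 shared peaks. The 13 genes of regulators had 19 WT-only and 22 KO-only peaks. Pmepa1, a negative regulator of receptor-regulated Smads, had 2 WT-only and 5 KO-only peaks, and Trim33, a ubiquitin ligase that acts on the Smad pathway, had 1 and 3. The ubiquitin ligase genes Smurf1 and Smurf2 differed in direction, with 4 and 2 at Smurf1 and 0 and 2 at Smurf2. The 8 target genes had 3 WT-only and 7 KO-only peaks, of which Id2 had 0 and 4. Itgae, the integrin CD103 induced by TGF-beta, had 1 of each and 3 shared peaks.

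The genes with the most similar counts over the 2 lists, by Euclidean distance of the WT-only, KO-only and shared numbers, were Dock10 (7, 2 and 13; distance 1), Usp6nl (6, 3 and 13; 1) and Atxn7l1 (6, 3 and 12; 1.41) for Tgfbr2. For Tgfbr3 they were Bcl11b and Lta4h (5, 5 and 6 each) and Sdccag8 (6, 4 and 6), all at a distance of 1. With 2 lists this is a likeness of counts alone. As a check of the sorted cells, a peak within 1 kb of a gene end was present in the WT and KO lists at 4 and 5 of 6 Treg and CD4 T cell markers (Il2ra, Ctla4, Ikzf2 and Cd3e in both, Cd4 in KO, Foxp3 in neither by this window, although a shared peak was assigned to it). Of 10 markers of B, myeloid, NK and CD8 T cells, Cd8b1 had such a peak in each list and the other 9 had none.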

How the data were processed

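ATAC-seq was made from 3 WT and 3 KO samples. The submitters' processing notes name HOMER 4.10.1, HISAT2 2.1.0, cutadapt 1.12 and Trim Galore 0.4.2, besides SAMtools 1.3, deepTools, FastQC and build mm10. The sources used here do not give the peak threshold, any shift of reads or how replicates were joined. The authors deposited 1 peak list per group, whose score column is 1 throughout. Nearly all peaks are 219 bp (WT) or 193 bp (KO) wide.

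With pandas 2.3.3, numpy 2.4.6 and scipy 1.17.1 in Python 3.11.15 (figures: matplotlib 3.10.9) were computed overlaps (at least 1 bp), assignment to RefSeq protein-coding genes (GRCm38.p6; of several genes holding a midpoint, the one with the nearest end), exact 95% intervals and places. The overlap code gave 0 differences from bedtools 2.31.1 on 600 simulated peaks. Named are all members, other pathway genes differing by at least 2 peaks, up to 2 best-placed genotype-specific peaks per list and member, and peaks at gene ends; Lrrc32, Tgfb1, Eng, Acvr2b, Itgae and further single peaks were added after their values were seen. Members and lists were chosen with earlier results of these data known. A site assigned by distance may act on another gene. A gene of the target list is not reported here.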

Additional observations from a re-analysis of the deposited data

How the results depend on the processing

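No paired analysis was possible because each group has 1 list for its 3 samples, and for the same reason no replicate could be left out. In the first 50% of each list, read against the whole other list, WT-only peaks of the members numbered 4 and KO-only peaks 9, a KO-only share of 69.2% against 54.6% over all assigned peaks there. With gene bodies alone the numbers were 31 (shared), 11 (WT-only) and 11 (KO-only), a KO-only share of 50% against 45.0% over all assigned peaks. With a reach of 10 kb there were 13 WT-only and 14 KO-only peaks, a KO-only share of 51.9% against 45.4%. Both settings admit fewer peaks by construction. The other totals stayed within 1.5 times the reported ones under overlap of 50% of the narrower peak, a gap of 500 bp, a WT list cut to the length of the KO list and the gene with the nearest end. With the WT list cut, the direction of the total turned to 18 WT-only against 19 KO-only. The KO-only share was then 51.4%, and over all assigned peaks it was 50.2% under the same setting. The difference of KO-only minus WT-only peaks kept its sign under all 7 alternatives at Tgfbr2 (-4 to -2), Smad3 (1 to 3) and Ski (2 to 3). At Smad2 it turned from -1 to 1 in the first 50% of each list. Its WT-only peaks, at 64.0% and 97.3%, fall outside that part, while its KO-only peak, at 26.3%, lies inside. At Smad2, Smad4, Smad7, Skil and Tgfbr3 the difference was 0 under some alternatives. Peak calls without read counts set no limit on how small a difference could be seen.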
